A study of Caenorhabditis elegans with 2 samples.

Results

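The 6 genes described here, nhr-23, nhr-25, myrf-1, blmp-1, bed-3 and grh-1, encode transcription factors of the Caenorhabditis elegans molting cycle. They were taken by name from the 19973 protein-coding genes of the Ensembl models on the nuclear chromosomes, and all 6 were found. The question at each was where an eGFP-tagged nuclear hormone receptor, NHR-21, was bound in larvae of the second stage (L2). Chromatin immunoprecipitation and sequencing (ChIP-seq) had been done on whole worms of both sexes of strain OP361, which carries the integrated transgene wgIs361 for tagged nhr-21 and the unc-119 allele tm4063. There was 1 group with 2 biological replicates, made from fragments of 150 to 350 bp, and no control sample was analysed here. The sources used here do not give the hours of growth, the cells that express the transgene or the number of animals, and whole worms do not tell which tissue a signal comes from. As the target of the antibody the samples name nhr-21, and their description names its eGFP fusion. The pooled list held 0 candidate intervals in the body of nhr-21 itself or the 5 kb upstream of it.

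C. elegans larvae replace their cuticle at the end of every larval stage, and a large set of epidermal genes rises and falls once per cycle as they do so. The 6 factors belong to the regulators of this cycle in the worm. NHR-23 is the relative of insect DHR3 and vertebrate ROR receptors, and NHR-25 is the relative of insect Ftz-F1. MYRF-1 is made as a membrane protein whose cleaved part enters the nucleus, BLMP-1 is a zinc finger protein related to mammalian Blimp1, BED-3 has a BED-type zinc finger, and GRH-1 belongs to the Grainyhead family of epidermal factors. The deposited lists give intervals of the genome with a signal, which is the authors' own value for each peak, has no stated scale and is used here only to rank intervals within a list.

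The sequences around the 4 optimal positions at nhr-25 and myrf-1 show what lay under the binding signal, an optimal peak being one past the authors' reproducibility threshold. Each run is a window of the RefSeq WBcel235 genome (ce11 coordinates) centred on the summit, written 5′ to 3′ on the strand of the gene. Capitals mark GAGAGA or its reverse complement TCTCTC, the only one of 7 words of 6 bases searched on both strands that occurred in these 4 windows.
nhr-25 upstream, chrX:13008252-13008352, plus strand: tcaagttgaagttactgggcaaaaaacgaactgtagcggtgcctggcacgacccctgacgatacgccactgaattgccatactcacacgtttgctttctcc
nhr-25 intron, chrX:13009724-13009824, plus strand: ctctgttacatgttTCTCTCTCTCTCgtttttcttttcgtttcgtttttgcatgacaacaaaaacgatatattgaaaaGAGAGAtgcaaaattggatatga
myrf-1 upstream, chrII:10502854-10502954, minus strand: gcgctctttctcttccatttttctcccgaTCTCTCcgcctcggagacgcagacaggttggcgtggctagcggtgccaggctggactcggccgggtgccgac
myrf-1 intron, chrII:10501722-10501822, minus strand: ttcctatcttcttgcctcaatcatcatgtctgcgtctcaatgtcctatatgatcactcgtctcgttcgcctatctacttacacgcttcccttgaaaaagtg
The intronic window of nhr-25 holds a run of overlapping TCTCTC copies and a separate GAGAGA, the upstream window of myrf-1 holds 1 TCTCTC, and the other two hold neither.

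Optimal intervals lay at 5 of the 6 genes, and bed-3 was the exception with 0. The window used for a gene was its body and the 5 kb upstream of its outermost annotated 5′ end, and any overlap of 1 bp counted. Among all protein-coding genes, 24.6% had at least 1 optimal interval in such a window, and 32.7% of the 1796 genes whose windows were as long as those of the 6 (10444 to 14955 bp, against a median of 7.03 kb over all genes). There were 12 optimal intervals at the members, namely 5 at nhr-23, 2 each at nhr-25, myrf-1 and blmp-1, and 1 at grh-1. With 2 or more there were 4 of the 6 genes, against 7.05% of all genes and 10.1% of those with windows of the same length. Per length, the 6 windows together (68.5 kb) had 1.75 optimal intervals per 10 kb, against 0.429 over the windows of all protein-coding genes and 0.364 over the genome. The members were chosen with earlier results of these data known, so these shares are given without a test. In bulk ChIP of whole larvae, fewer cells with a bound site and less binding per cell cannot be told apart.

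**Figure D1:**
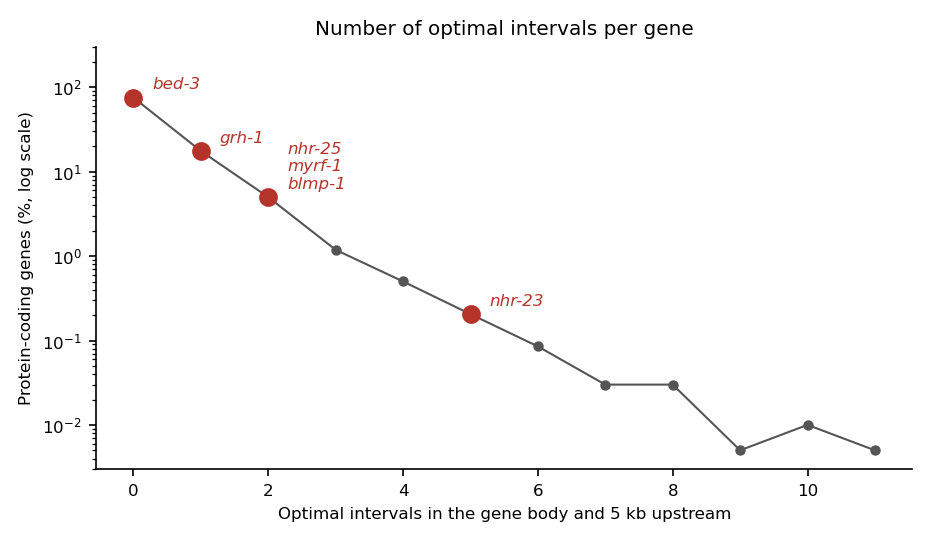
The plot gives, on a log scale, the percentage of all 19973 protein-coding genes (vertical axis) with each number of optimal intervals in the gene body and 5 kb upstream (horizontal axis), and red points mark the numbers found at the 6 molting-cycle genes. bed-3 sits at 0 with most genes, grh-1 at 1, nhr-25, myrf-1 and blmp-1 at 2, and nhr-23 at 5.

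The 12 optimal intervals ranked from 544 to 2798 among the 3647 optimal peaks, with a median rank of 1139. Their signal ran from 63.8 to 176 with a median of 120, against 52.2 to 1244 with a median of 87.3 over all optimal peaks, and 9 of the 12 lay above that median. By summit, 8 lay upstream of the outermost 5′ end, 3 in an intron, 1 in an untranslated exon and 0 in a coding exon. Of the 12, 7 lay within 1000 bp of an annotated 5′ end of the gene. No share over all optimal peaks is given for these places, so the counts only describe the 12. The gene nhr-23 has 6 annotated 5′ ends, the most of the members, and so more ends to be near. In 10 of 12 the interval had the width of 390 bp that 78.7% of all optimal peaks had, so the width carries little information on the extent of binding there. The summit of such an interval at the members was its midpoint.

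**Figure D2:**
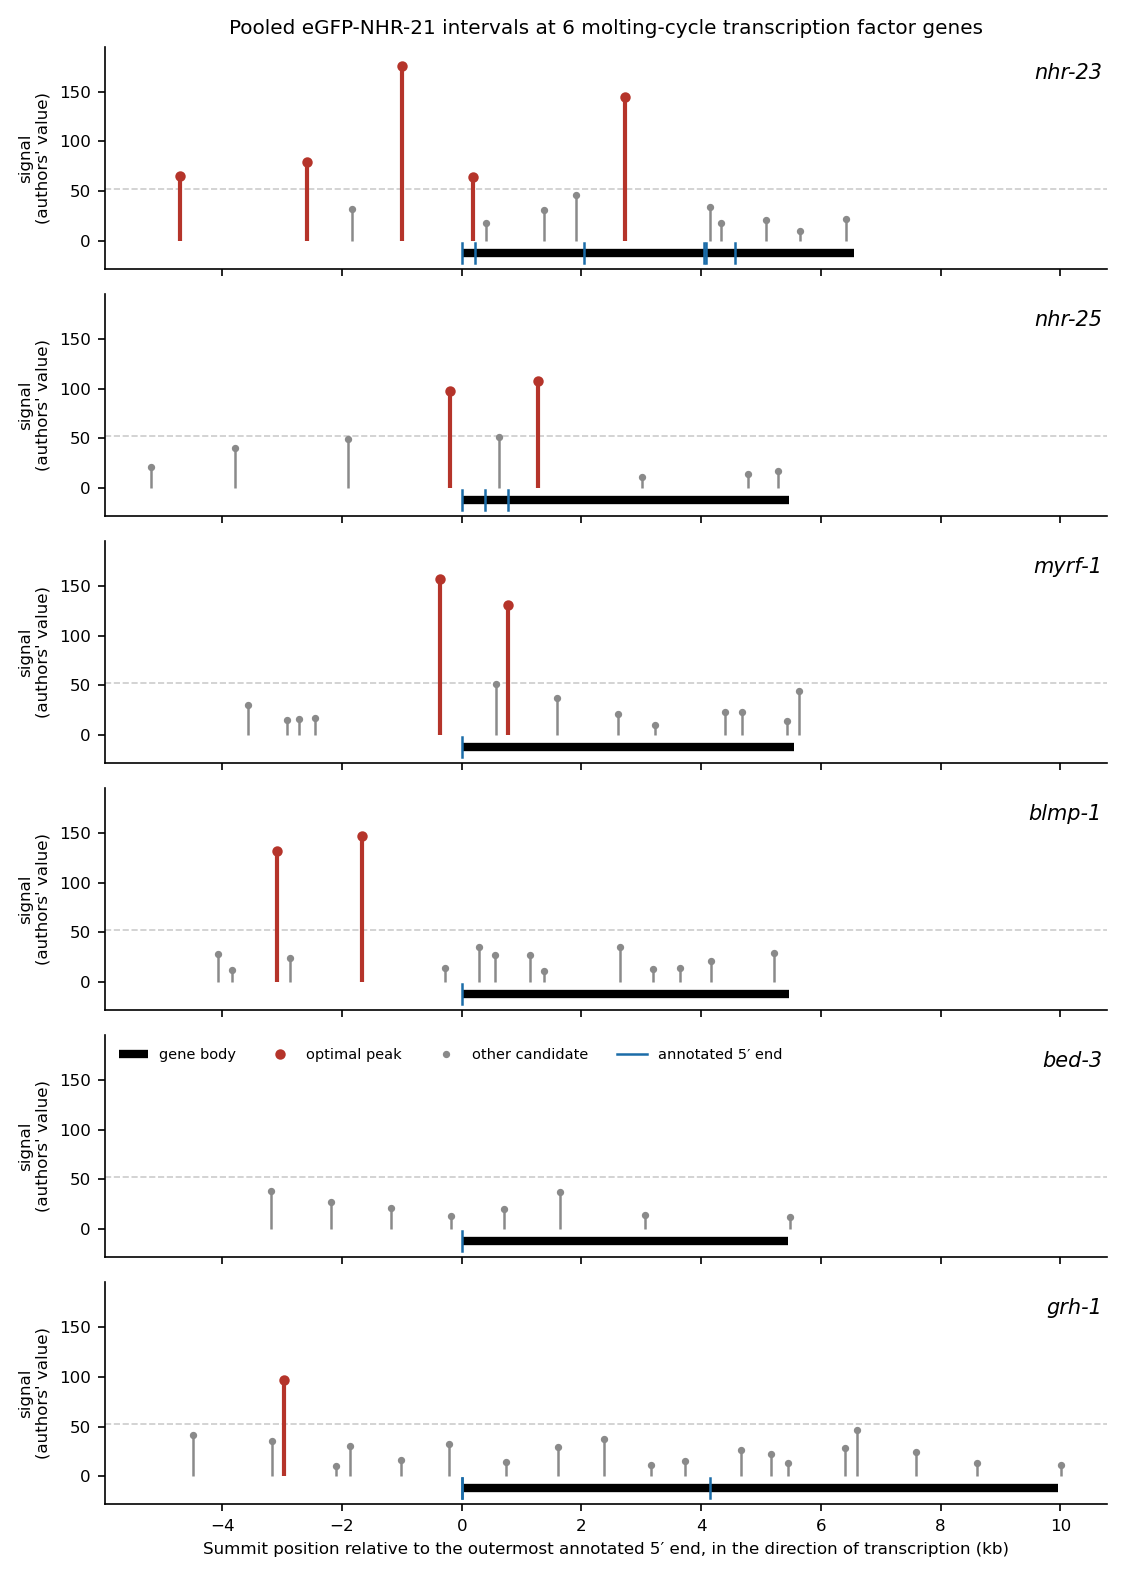
Each panel plots the pooled intervals of 1 gene as stems, with the position of the summit relative to the outermost annotated 5′ end in kb on the horizontal axis and the authors' signal on the vertical axis (red, optimal peaks; grey, other candidates; black bar, gene body; blue ticks, annotated 5′ ends; dashed line, the lowest optimal signal of 52.2). The red stems stand on both sides of the first 5′ end at nhr-23, nhr-25 and myrf-1, only upstream at blmp-1 and grh-1, and are missing at bed-3.

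The nuclear receptor gene nhr-23 (WBGene00003622, chrI:7214745-7221299, plus strand) had 5 optimal intervals, from 4.7 kb upstream to within its body. At least 5 were found at 74 protein-coding genes (0.371%). The count of nhr-23 depended on the rule, with 3 for 2 kb upstream, 3 where its own 5′ end had to be the nearest and 2 when the weaker 50% of peaks were dropped. The strongest, at chrI:7213705-7213853, had a pooled signal of 176 (rank 544). Its summit lay 989 bp upstream of the first 5′ end, and its signal was 63.9 (rank 708) in replicate 1 and 114 (rank 479) in replicate 2. The next, at chrI:7217275-7217664, had a pooled signal of 145 (rank 776) and lay in an intron, with 67.1 (rank 653) in replicate 1 and 85.1 (rank 828) in replicate 2. These strong intervals thus swapped their order between replicates.

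The models of nhr-23 start transcripts at 6 different 5′ ends, so a position depends on the transcript it is measured from. The intronic summit was 2725, 2503 and 686 bp downstream of the first 3 ends and 1316, 1353 and 1848 bp upstream of the last 3. The strongest summit lay upstream of all 6, by 989, 1211, 3028, 5030, 5067 and 5562 bp. A weaker optimal interval, chrI:7214747-7215136, had its summit 25 bp upstream of the second 5′ end and 197 bp downstream of the first, in an untranslated exon. Its pooled signal was 63.8 (rank 2798), with 30.5 (rank 2478) in replicate 1 and 38.8 (rank 2810) in replicate 2. Of the 12 optimal windows, this was the only one that held AGGTCA, a half-site that many nuclear receptors bind. Trans-splicing removes the original start of many C. elegans transcripts, and some of these 5′ ends may therefore be splice positions rather than start sites.

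The remaining optimal intervals of nhr-23 lay nearer to other genes. The interval at chrI:7211968-7212357 had a pooled signal of 79.0 (rank 2109), with 28.1 (rank 2802) in replicate 1 and 50.3 (rank 1976) in replicate 2. It was 2582 bp upstream of nhr-23, and the nearest protein-coding 5′ end was that of C01H6.4, 1648 bp away, inside whose span it lay. The interval at chrI:7209838-7210227 had a pooled signal of 65.3 (rank 2724), with 24.4 (rank 3465) in replicate 1 and 42.5 (rank 2505) in replicate 2. It lay 4712 bp upstream of nhr-23 and 167 bp upstream of C01H6.3, which runs on the opposite strand. Both were weaker than the strongest intervals of nhr-23 in every list.

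The other receptor gene, nhr-25 (WBGene00003623, chrX:13008493-13013964, plus strand), had 2 optimal intervals of nearly equal signal, whose sequences are printed above. The intronic interval, chrX:13009579-13009968, had a pooled signal of 108 (rank 1351), with 50.4 (rank 1084) in replicate 1 and 61.2 (rank 1472) in replicate 2. Its summit lay 1281, 888 and 508 bp downstream of the 3 annotated 5′ ends. The upstream interval, chrX:13008107-13008496, had a pooled signal of 97.7 (rank 1544), with 46.9 (rank 1229) in replicate 1 and 51.9 (rank 1874) in replicate 2. Its summit was 191, 584 and 964 bp upstream of the same ends. The intronic interval ranked ahead of the upstream one in the pooled list and in both replicates. Noncoding genes of the ncRNA class overlapped both, F11C1.16 in the intron and the pair F11C1.12 and F11C1.13 upstream. Genes of this class also lay in the window of bed-3, which had no optimal interval. No share over all optimal peaks is given for such overlaps.

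At nhr-25 another candidate fell just short of the threshold. Its signal was 51.5 (rank 3693) against the 52.2 of the last optimal peak, and its summit lay 145 bp upstream of the third 5′ end. The replicates gave it 16.5 (rank 6359) and 20.7 (rank 6383). A further candidate, 1906 bp upstream of the first 5′ end, had 49.3 (rank 3902) in the pooled list. It ranked 2131 in replicate 1 (signal 33.7) and 7685 in replicate 2, so it was among the 3647 strongest intervals of replicate 1 but not of replicate 2.

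myrf-1 (WBGene00004134, chrII:10496987-10502541, minus strand) has a single annotated 5′ end, with an optimal interval on either side of it. The upstream interval, chrII:10502709-10503098, had a pooled signal of 157 (rank 671) with its summit 363 bp before the 5′ end. It had 53.0 (rank 1003) in replicate 1 and 106 (rank 541) in replicate 2, and the ncRNA gene F59B10.7 overlapped it. The interval in the intron, chrII:10501577-10501966, had a pooled signal of 131 (rank 927) and lay 769 bp after the 5′ end. It had 41.3 (rank 1514) in replicate 1 and 91.8 (rank 695) in replicate 2. The upstream interval ranked ahead in every list. The replicates placed the intronic summit 139 bp apart, the widest gap among the 12 intervals, so the bound site within the intron is less well placed than the other. A neighbouring candidate 569 bp after the 5′ end had a signal of 50.9 (rank 3754) and overlapped the optimal interval. Replicate 1 had a single interval for the pair, with its summit 636 bp after the 5′ end. Replicate 2 separated them, with summits at 775 and 572 bp. The replicate 1 value and the gap of 139 bp therefore rest on a shared interval.

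blmp-1 (WBGene00003847, chrI:10409302-10414773, plus strand) had its optimal intervals far upstream and none near its single annotated 5′ end. The stronger, chrI:10407553-10407659, had a pooled signal of 147 (rank 757) at 1670 bp upstream, with 55.0 (rank 951) in replicate 1 and 90.4 (rank 713) in replicate 2. The other, chrI:10406029-10406418, had a pooled signal of 132 (rank 914) at 3078 bp upstream, with 65.1 (rank 691) in replicate 1 and 69.1 (rank 1202) in replicate 2. Replicate 1 ranked the farther one ahead and replicate 2 the nearer one, so the order of the pair was not settled. No other protein-coding 5′ end was nearer to either, and ncRNA genes F25D7.6 and F25D7.8 overlapped them. The windows around both summits held GAGAGA, and that of the nearer one also held AACCGG, part of the Grainyhead binding site. Around the 5′ end itself, the candidate 271 bp upstream had a signal of 13.9 (rank 20116) and that 294 bp downstream, in an intron, had 35.6 (rank 5921).

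grh-1 (WBGene00001707, chrI:1258201-1268155, minus strand) had 1 optimal interval, and another gene was closer to it. The interval chrI:1270928-1271317 had a pooled signal of 96.6 (rank 1564), with 30.3 (rank 2493) in replicate 1 and 71.0 (rank 1154) in replicate 2. Its summit was 2968 bp upstream of the first 5′ end of grh-1 and 393 bp upstream of the divergent neighbour Y48G8AR.8. With 2 kb upstream grh-1 had 0, and with 10 kb it had 2, the stronger with a signal of 333. Among the 3647 strongest intervals of the replicate 2 list alone it had 4, and among those of the replicate 1 list alone 2. The 4 are not separate sites, since those of ranks 1154 and 2298 overlapped each other and the optimal interval. Replicate 1 had a single interval for the optimal peak and a candidate 3171 bp upstream (35.1, rank 6036). The replicate 1 value of the optimal peak therefore rests on a shared interval. The candidate nearest to the first 5′ end of grh-1, 210 bp upstream, had a signal of 32.8 (rank 6553). In the long body of grh-1 the strongest candidate was intronic, with 46.6 (rank 4197), 23.5 (rank 3676) in replicate 1 and 35.1 (rank 3194) in replicate 2. A neighbouring candidate of 28.6 (rank 7749) shared that replicate 1 interval, and its summit was the nearer of the pair to it. The window of grh-1 held 20 pooled candidates, the most of the 6 genes, and it was also the longest.

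bed-3 (WBGene00009133, chrIV:9916524-9921967, plus strand) had 8 pooled candidates, with signals from 12.0 to 38.2, and no optimal interval. The strongest lay 3180 bp upstream (signal 38.2, rank 5412). In replicate 1 it matched an interval of 8.67 (rank 17802), and in replicate 2 it overlapped intervals of 28.0 (rank 4337) and 15.3 (rank 9577). The next lay in an intron, 1646 bp after the 5′ end, with 37.3 (rank 5554), 14.4 (rank 7929) in replicate 1 and 25.5 (rank 4880) in replicate 2. The candidate nearest to the 5′ end, 176 bp upstream, had 13.0 (rank 21940), 10.9 (rank 14922) in replicate 2 and no overlapping interval in replicate 1. No interval of bed-3 was among the 3647 strongest of either replicate, the best ranks being 7014 in replicate 1 and 4337 in replicate 2.

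Each of the 12 optimal intervals was also among the 3647 strongest in both replicates, as were 74.8% of all optimal peaks. Ranks in the 2 lists differed by at most 2.18 times, for myrf-1 in the intron, whose replicate 1 interval a neighbouring candidate shared. Neighbouring candidates also shared the replicate 1 interval at grh-1 and the replicate 2 interval at the nhr-23 peak in the untranslated exon. Of the 12, 5 ranked better in replicate 1 and 7 in replicate 2. The summits of the replicates lay 8 to 139 bp apart, and those of 11 of the 12 intervals at most 69 bp apart. With 2 replicates, differences in rank between intervals were not tested.

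**Figure D3:**
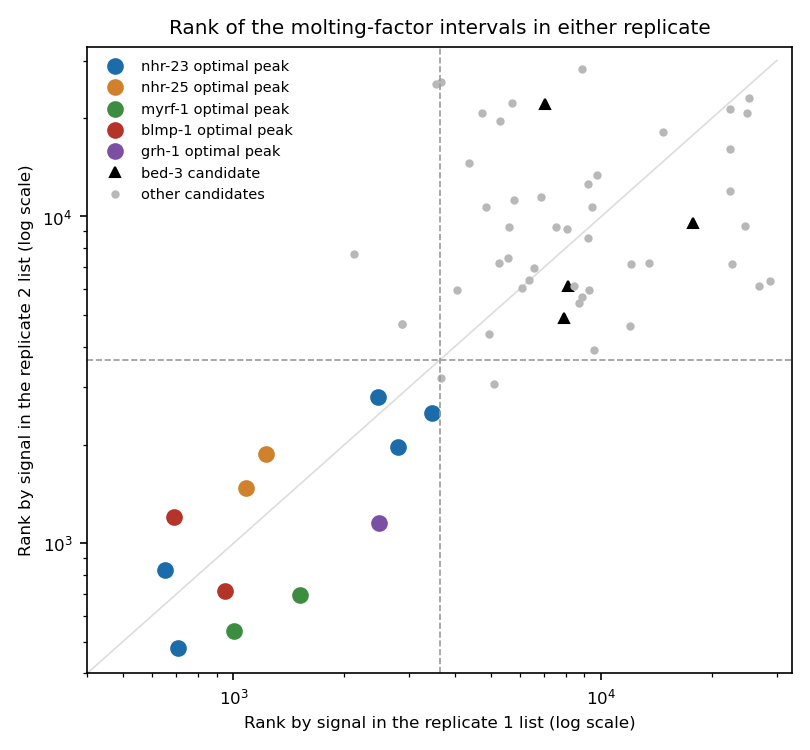
Each point is a pooled interval at one of the 6 genes, plotted by its rank in the replicate 1 list (horizontal axis) and in the replicate 2 list (vertical axis), both on log scales with the strongest intervals at the lower left (large circles, the 12 optimal peaks; triangles, candidates of bed-3; small dots, other candidates that overlap no optimal peak and have an interval in both lists). Dashed lines stand at rank 3647, and all 12 circles lie below and to the left of both lines.

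Intervals that reached the 3647 strongest in a single replicate list and overlapped no optimal peak numbered 5. In replicate 1 they were the nhr-25 candidate 1913 bp upstream given above, a blmp-1 interval 503 bp into the gene (signal 27.6, rank 2881, against rank 4703 in replicate 2) and a grh-1 interval 541 bp after the third 5′ end of the gene (24.1, rank 3545, against rank 25424). In replicate 2 both were at grh-1. These were the intronic candidate described above and an interval 4399 bp upstream (36.2, rank 3075, against rank 5097 in replicate 1).

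Below the threshold the 6 genes carried many weak candidates. The pooled list of 30000 had 80 intervals in their windows, of which 68 were not optimal, while the replicate lists had 82 and 77. The count was 14 at nhr-23, 9 at nhr-25, 14 at myrf-1, 15 at blmp-1, 8 at bed-3 and 20 at grh-1. Per 10 kb this ranged from 7.66 at bed-3 to 14.3 at blmp-1, against a median of 2.18 over all protein-coding genes and 2.79 over those with windows of the same length. A density of at least 7.66 was reached by 12.5% of all genes. Because each list ended at a fixed number of intervals, a candidate is not by itself evidence of binding.

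These 68 were weaker by definition, since the optimal peaks are the highest of the same list by signal. Their median signal was 22.2 at nhr-23, 21.6 at nhr-25, 21.8 at myrf-1, 24.5 at blmp-1 and 24.0 at grh-1, and lower at bed-3. Of the 68, 22 lay upstream, 22 in introns, 16 in coding exons, 5 in untranslated exons and 3 beyond the 3′ end. At nhr-23 they ran from 10.4 to 46.5 and at grh-1 from 9.87 to 46.6. The smallest q-value of the pooled list, which all optimal peaks have, was shared by 7 of the 68 (10.3%), against 5.04% of all 26353 candidates that were not optimal. There were 2 each at nhr-25, myrf-1 and grh-1 and 1 at nhr-23.

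Counted only where the gene's own 5′ end was the nearest, optimal intervals remained at 4 of the 6 genes (nhr-23, nhr-25, myrf-1 and blmp-1), against 12.6% of all protein-coding genes. In all, 9 of the 12 intervals met this rule. Those that did not were the outer 2 of nhr-23 and the single one of grh-1. Position alone was used, and effects of an interval on any gene were not measured.

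In base composition the 12 windows around the summits, of the same length as those printed, spanned nearly the whole range of the optimal peaks. The GC content was 49.7% ± 13.7 (SD over 12 windows), from 25.7% at the outermost nhr-23 interval to 69.3% at grh-1, against 44.5% ± 8.21 over all 3647 optimal peaks. GAGAGA was present in 5 of the 12, namely both of blmp-1, the intronic one of nhr-25, the upstream one of myrf-1 and that of grh-1. It occurred in 24.3% of all optimal windows and in 9.12% of 25659 other candidates. AGGTCA occurred in 1, against 3.76% of all optimal windows and 3.00% of the others. The part of the Grainyhead site, AACCGG, also occurred in 1, against 3.15% and 2.37%. In 0 of the 12 was CACGTG found, an E-box that 7.21% of all optimal windows and 2.41% of the others held. The receptor word AAGTCA was likewise in 0, against 3.92% and 4.73%, and so were the GATA-factor word TGATAA, against 11.6% and 11.5%, and the word TTTCAC, which is part of sites reported for BLMP-1, against 9.87% and 10.8%. A word of 6 bases in such a window is a description, and its absence says only that these letters were not there.

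The nuclear receptor family, to which nhr-23, nhr-25 and the tagged factor belong, gave a background of its own, and its difference from all genes was not tested. Of 269 genes named nhr, 70 (26.0%, against 24.6% of all genes) had at least 1 and 31 (11.5%, against 7.05%) had at least 2. Only nhr-23 among them had as many as 5. Peaks next to the members in the optimal list came from other parts of the genome, with a difference of 1 in rank as the measure of likeness. They had as the gene of the nearest 5′ end mrpl-23 and dpy-23 beside nhr-23, Y106G6H.16 and asns-2 beside nhr-25, F52B10.3 and swsn-7 beside myrf-1, F45D3.3 and ZC190.4 beside blmp-1, and rpoa-1 and str-176 beside grh-1.

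Genes that act with the 6 factors or in larval timing had optimal intervals in 11 of 14 cases, against 24.6% of all genes, and 9 of the 14 had 2 or more, against 7.05%. These shares are over genes of any window length, and none matched for the window lengths of this list is given. The highest signals were at lin-42, the worm relative of Period (293, rank 198), and at kin-20, a casein kinase 1 relative (273, rank 232), both in introns. They were followed by nhr-85, a receptor related to Rev-Erb (188, rank 486), lin-28, an RNA-binding protein (185, rank 497), and lin-14, a timing transcription factor (174, rank 557). In replicate 1 these 5 had signals of 119, 112, 76.0, 102 and 65.7, and in replicate 2 of 172, 163, 111, 75.5 and 105, in the same order. The paralogue myrf-2 had 4 optimal intervals, the strongest with a signal of 130 (rank 947). That interval lay upstream of myrf-2 but was nearer to the 5′ end of another gene, nucb-1. pan-1, whose product binds MYRF-1, had 2 (149, rank 738). dre-1, an F-box gene whose product acts on BLMP-1, had 1 (95.0, rank 1609). The genes without an optimal interval were elt-1, lin-29 and lin-39, whose strongest candidates had 18.2, 39.6 and 46.4. The timing genes in this list were known from earlier results to have peaks, so its count is no independent evidence.

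Genes with known roles in shedding or building the cuticle had optimal intervals in 13 of 27 cases, against the same 24.6%, and 7 of the 27 had 2 or more, against 7.05%. Here too the shares are not matched for window length. The count was 5 of 27 when the weaker 50% of peaks were dropped, where 14.1% of all genes had one, and 8 of 27 with the nearest 5′ end only, against 12.6%. The strongest was at nekl-3, a NIMA-related kinase needed for molting (257, rank 257), where the 5′ end of F17E5.2 was nearer. It had 111 in replicate 1 and 140 in replicate 2. Next came let-767, a steroid dehydrogenase relative (113, rank 1244), noah-2 and noah-1, apical extracellular matrix proteins (111, rank 1296, and 90.2, rank 1743), and mlt-10 (88.7, rank 1779). The noah-2 interval ranked 4413 in replicate 1 and 749 in replicate 2. Also outside the 3647 strongest of replicate 1 were the strongest optimal intervals of mlt-11, lrp-1, ptr-4, ptr-18 and acn-1 (ranks 4692, 5586, 5033, 3945 and 3985). That of mlt-8 was outside those of replicate 2 (rank 4073). Only those of nekl-3, let-767, noah-1, mlt-10, mlt-9 and mlt-2 were inside in both. That was a smaller share of the 13 genes than the 74.8% of all optimal peaks that were inside in both. For the strongest optimal intervals of let-767, lrp-1 and acn-1 too, other genes (trmt-10C.2, capg-1 and vit-2) had the nearer 5′ end. The only optimal interval of lrp-1 had its summit beyond the 3′ end of the gene. With the summit required in the window, 12 genes of the list counted, against 23.6% of all genes. Both optimal intervals of mlt-2 were the outer 2 of nhr-23 described above, since the windows of these neighbours overlap. Of the 14 without an optimal interval, fbn-1, a fibrillin-related matrix gene (48.4, rank 4003), and qua-1, a hedgehog-related gene (46.6, rank 4192), had the strongest candidates, close to the lowest optimal signal of 52.2. The weakest was at the collagen gene bli-2 (11.2, rank 26195), and mlt-4 had no candidate.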

How the data were processed

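Per the authors' deposited text listing, candidate lists were made from the ChIP alignments and 1 further file, which also entered their control-normalized signal, and optimal peaks from the pooled and replicate lists. The sources used here name no aligner, peak caller or threshold. The authors deposited a signal value and a −log10 q-value for each interval, and starts, ends and summit offsets in bp, for both replicates (30000 candidates each), the pooled data (30000) and the 3647 optimal peaks. Intervals were ranked by signal within each list. Read totals are not in the lists, so depth is unknown. Only ce11 lists were used, with Ensembl release 115 models and the WBcel235 genome, which has ce11 coordinates. Python 3.11.15 and numpy 2.4.6 were used, and window assignment was tested on simulated data. A pooled interval was matched to the overlapping replicate interval with the nearest summit. No significance test was made. The members, lists, words and alternatives were chosen with earlier results of these data known. Genes named are the members, the nearest gene of each interval, the neighbours in rank, and of either list the 5 strongest plus others chosen after their values were seen. The background of genes with windows of the same length was also added after seeing the data.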

Additional observations from a re-analysis of the deposited data

How the results depend on the processing

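Under 7 other settings, 4 or 5 of the 6 genes had an interval that counted, and bed-3 had 0 in each. With 2 kb upstream in place of 5 kb there were 8 optimal intervals at 4 genes, against 3587 of all 19973 genes with one. With 10 kb there were 15 at 5 genes (33.5% of all genes), with the stronger 50% of the optimal peaks 9 at 5 genes (14.1%), and with the nearest protein-coding 5′ end only 9 at 4 genes (12.6%). grh-1 was the gene lost with 2 kb and with the nearest 5′ end, while with 10 kb its strongest signal was 333 in place of 96.6. The count of blmp-1 also moved with the window, from 2 to 1 with 2 kb and to 4 with 10 kb. Leaving out replicate 1 or replicate 2 meant counting the 3647 strongest intervals of the other replicate list, without a reproducibility threshold. This gave 15 intervals at 5 genes each time (24.4% and 23.9% of all genes), with 4 (some of them overlapping) and 2 at grh-1. The molting list had 5 of 27 genes, in place of 13, in the stronger 50% of the peaks and 8 with the nearest 5′ end only, against the same 14.1% and 12.6% of all genes, and gave 11 without either replicate. The partner list stayed at 10 or 11 of 14. No paired analysis was possible because there was a single group. Depth is unknown, so no limit of detection can be given, and the absence of an optimal interval at bed-3 does not show that the gene was unbound.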
